A study of Mus musculus with 4 samples.

Results

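The genes described here encode proteins that bind the 7SK RNA or drive RNA polymerase II through the early stages of a gene. They are Cdk9, Ccnt1, Ccnt2, Hexim1, Larp7, Mepce, Cdk12, Cdk13, Ccnk and Supt5, taken from the deposited table by symbol. These 10 of 52189 genes were chosen for what their proteins do, but with earlier results of these data known. All 10 were found once, and each stood above 1 TPM (a transcript's share of a library, corrected for its length and scaled to 1000000) in every library, so all 10 were among the 16647 genes tested. RNA immunoprecipitation and sequencing (RIP-seq) was done on nuclei of AML12 cells, an immortalised mouse hepatocyte line that came from a mouse carrying a transforming growth factor alpha transgene. All cells had grown in medium with 10% fetal bovine serum, an ITS (insulin, transferrin, selenium) supplement and 0.1 μM dexamethasone, and were crosslinked with ultraviolet light. The 2 groups differ in the antibody alone: anti-SAFB, against scaffold attachment factor B, an RNA-binding protein of the nuclear matrix (2 libraries), and anti-IgG as the control precipitation (2 libraries). Nothing in the labels says that libraries of a group came from separate cultures, so p-values measure the spread between these libraries, which may be technical. An input was set aside in the experiment and was not analysed here, so a precipitated level could not be divided by the level in the nuclei.

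P-TEFb, the kinase CDK9 paired with cyclin T1 or cyclin T2, releases paused RNA polymerase II by phosphorylating the polymerase, the pausing factor NELF and the elongation factor DSIF, whose large subunit is the product of Supt5. Much of the P-TEFb in a cell is held inactive by HEXIM1 on the 7SK RNA, a small nuclear RNA whose 5′ end is capped by MEPCE and whose 3′ end is bound by LARP7. CDK12 and CDK13, each with cyclin K, phosphorylate the polymerase further into the gene. The measurement concerns the RNAs of these genes recovered with SAFB, not the proteins.

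The start of the 7SK RNA is shown because it is the RNA that ties these proteins together and because it was lower in the SAFB RIP as deposited, where the messenger RNA of its partner Larp7 was higher (with quantile normalization both were higher). Its first 80 of 331 bases (mm10, chr9:78175554-78175633, minus strand; GENCODE release M21), with T for U, hold all 3 GATC words of the RNA in capitals; GATC repeats in this 5′ hairpin are the known contact of HEXIM1. The word reads the same on both strands, and 0.137% of windows of the same length in the transcripts of tested protein-coding genes held 3 or more.
Rn7sk: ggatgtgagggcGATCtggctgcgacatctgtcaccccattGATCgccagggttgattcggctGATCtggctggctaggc

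SAFB is known for binding purine-rich RNA, and the next sequences show the coding window of 30 bases, within 1 exon, that held the most GAAGA words in 6 of the messenger RNAs, with GAAGA in capitals. They were picked to set the 3 messenger RNAs that rose most beside 3 that did not pass the test. Each window is the richest of its gene, so it is a display and not a typical stretch.
Larp7 (mm10, chr3:127546374-127546403, minus strand): aagaGAAGAaaaaGAAGAaaaagaaaaaag
Cdk13 (chr13:17721232-17721261, minus strand): ggagtaaaaagaGAAGAAGAcagaaacaga
Cdk12 (chr11:98221033-98221062, plus strand): ggagaaaGAAGAcaaacagaaagtgattgg
Supt5 (chr7:28331435-28331464, minus strand): gGAAGAgGAAGAatacgatgagGAAGAAGA
Cdk9 (chr2:32712035-32712064, minus strand): GAAGAaagtgttgatggagaatgagaagga
Ccnk (chr12:108193672-108193701, plus strand): GAAGAagtcatggtgttggagaggatctta
The window of Larp7 is made of purines alone, yet the window of Supt5, whose RNA did not pass the test, holds 4 overlapping or separate GAAGA words against 2 in Larp7 and 2 in Cdk13. Among windows of 30 bases laid end to end over the transcripts of tested protein-coding genes, 6.24% held GAAGA, 0.510% held it 2 or more times and 3.99% held its reverse complement TCTTC. These shares are of fixed windows over whole transcripts, so they do not give how rare the richest coding window of a gene is. The richest windows of Ccnt1 and Hexim1, not shown, also hold 2 GAAGA words each.

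Of the 10 genes, Larp7, Cdk13, Cdk12, Ccnt2 and Hexim1 rose in the SAFB RIP and 0 fell (limma on log2(TPM + 1) over all genes, p-values adjusted by Benjamini-Hochberg, threshold 0.05; on an unadjusted p under 0.05, 6 were higher and 0 lower). Cdk9, Ccnt1, Ccnk, Mepce and Supt5 did not pass. Among all genes tested 29.8% were called higher and 8.30% lower, so a count of 5 of 10 stands on a high background. The SAFB values exceeded both IgG values in 6 of the 10 genes and fell short of both in 2, where 52.3% and 21.4% of all genes tested did so. The median log2 fold change was 0.48 over the 10 genes and 0.46 over all genes tested. Because all TPM values are shares, a higher recovery of these RNAs and a lower recovery of others cannot be told apart, nor can fewer cells and less RNA per cell. When each library was centred on its median, Larp7, Cdk13 and Cdk12 rose and Cdk9, Ccnt1, Ccnk and Supt5 fell, against 16.4% of all genes called higher and 17.6% lower. Quantile normalization and rescaling over protein-coding genes each left the same 3 higher and Cdk9 and Ccnk lower, against 16.6% higher and 17.9% lower of all genes in the first and 21.5% and 19.2% of protein-coding genes in the second. All or most of the 5 calls were lost when either SAFB library was left out, while the fold changes moved little. Without SAFB RIP replicate 1 and without replicate 2, Larp7 stood at 2.87 and 3.15 and Cdk13 at 2.24 and 2.35. Cdk12 stood at 1.62 and 1.76, Ccnt2 at 0.98 and 1.05 and Hexim1 at 0.55 and 0.60. Such a fit has 1 residual degree of freedom and takes its residual spread from the IgG pair alone. It assumes that the lone library varies like the others. Leaving out either IgG library raised the number of genes called, among the 10 and over all genes tested. Without IgG RIP replicate 1, Mepce stood at 0.46 and Ccnk at -0.60, and without IgG RIP replicate 2 Cdk9 stood at -0.71.

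**Figure D1:**
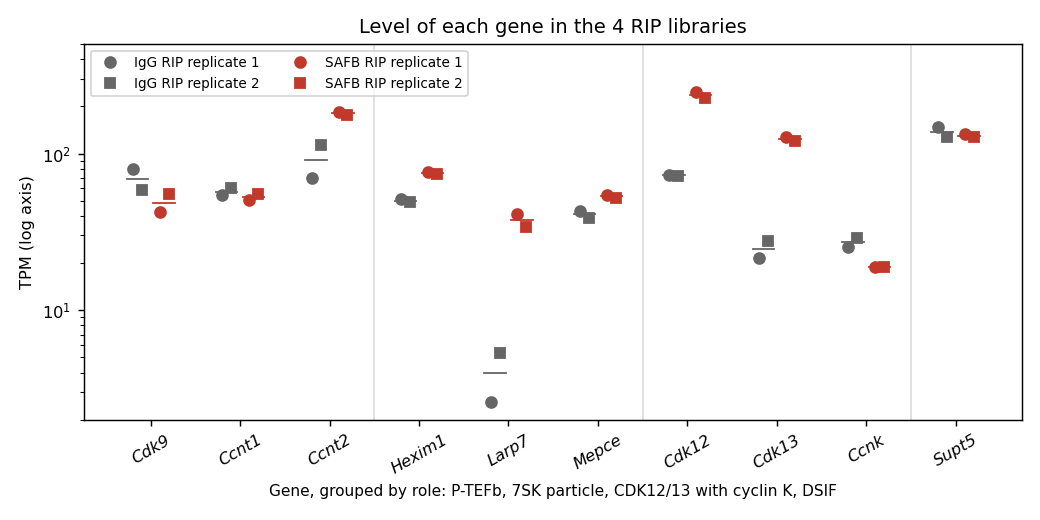
TPM of each gene (log axis) in the 2 IgG RIP libraries (grey) and the 2 SAFB RIP libraries (red), with circles for replicate 1, squares for replicate 2 and short lines at the group means. Larp7 stands lowest of the 10 in IgG, at 2.59 and 5.35 TPM, and at 41.4 and 33.9 TPM in SAFB, while Ccnt1 and Supt5 overlap between the groups.

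Among the 3 genes of P-TEFb itself 1 rose, where 29.8% of all genes tested were called higher. Ccnt2, which encodes cyclin T2 (chromosome 1, 127774164 to 127808061), stood at 69.4 and 114 TPM in the IgG libraries and at 185 and 176 TPM in the SAFB libraries. The groups did not overlap, but the IgG libraries differed from each other by more than the SAFB libraries did. Its log2 fold change was 1.01 ± 0.25 (SE; limma adjusted p = 0.0380), and after median centring it was 0.55 and did not pass (adjusted p = 0.118). Ccnt2 passed under 4 of the 11 alternatives that kept the 4 libraries; it also failed with a pseudocount of 0.1 (limma adjusted p = 0.0529), with no filter on low values (adjusted p = 0.0673) and with no variance trend (adjusted p = 0.0740). Without IgG RIP replicate 1 it stood at 0.66. Ccnt1, which encodes cyclin T1 (chromosome 15, 98538689 to 98570923), had 54.1 and 60.2 TPM in IgG and 50.4 and 55.1 TPM in SAFB. These values overlap, and the log2 fold change of -0.11 ± 0.14 did not pass (limma adjusted p = 0.551). An annotated antisense RNA, 9330020H09Rik, covers 2260 bases of the Ccnt1 model on the other strand and had 2.93 to 3.14 TPM in IgG and 7.36 to 7.98 TPM in SAFB, so the value of Ccnt1 is uncertain to that extent.

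Cdk9, the gene of the kinase (chromosome 2, 32705784 to 32713076), had 79.5 and 58.5 TPM in the IgG libraries and 42.4 and 54.8 TPM in the SAFB libraries. Both SAFB libraries lay below both IgG libraries, by a margin smaller than the spread within either group. The log2 fold change of -0.49 ± 0.22 did not pass as deposited (limma adjusted p = 0.149) and passed as lower after median centring, at -0.95 (adjusted p = 0.0357). With the trend against transcript GC content removed, an alternative chosen after the data had been seen, it stood at 0.16 (adjusted p = 0.484). The value of Cdk9 was negative under every scaling run and turned positive with the GC correction alone. Without IgG RIP replicate 2 it stood at -0.71.

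The genes of the 7SK particle spanned a wide range. Larp7 (chromosome 3, 127536714 to 127553349), whose product protects the end of 7SK, had 2.59 and 5.35 TPM in the IgG libraries and 41.4 and 33.9 TPM in the SAFB libraries. It had the largest fold change of the 10 genes, a log2 fold change of 3.01 ± 0.38 on the log2(TPM + 1) scale (limma adjusted p = 0.00928), which placed it at percentile 97.6 of all genes tested. It passed under all 11 alternatives that kept the 4 libraries, at 2.26 to 3.29, and failed without SAFB RIP replicate 1 (2.87, adjusted p = 0.208) and without SAFB RIP replicate 2 (3.15, adjusted p = 0.182). The microRNA genes Mir302a, Mir302b, Mir302c, Mir302d and Mir367 lie on the other strand within the Larp7 model in the annotation, and all 5 were listed at 0 in every library.

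Hexim1 (chromosome 11, 103116231 to 103119725), the P-TEFb inhibitor gene and the only one of the 10 whose longest transcript has 1 exon, had 51.4 and 48.7 TPM in IgG and 76.6 and 73.9 TPM in SAFB. The libraries within each group lay close together and the groups were apart. Its log2 fold change of 0.58 ± 0.12 passed as deposited (limma adjusted p = 0.0241), but it stood at percentile 54.4 of all genes tested. After median centring it was 0.12 and did not pass (adjusted p = 0.531). Mepce, the capping enzyme gene (chromosome 5, 137781906 to 137787655), had 43.2 and 38.5 TPM in IgG and 54.5 and 52.3 TPM in SAFB. Its groups did not overlap either, and its log2 fold change of 0.38 ± 0.14 did not pass (limma adjusted p = 0.0957), nor after median centring at -0.08 (adjusted p = 0.725). Removing the GC trend moved Mepce to 1.29 (adjusted p = 0.00526), the largest shift of the 10 genes.

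The 7SK RNA itself was lower in the SAFB RIP on the TPM scale as deposited, a direction that turned with quantile normalization. Rn7sk had 35246 and 27812 TPM in the IgG libraries and 9887 and 11174 TPM in the SAFB libraries, or 3.15% ± 0.526 and 1.05% ± 0.0911 of all TPM (SD, n = 2). Rn7sk fell by 1.57 ± 0.29 on the log2 scale (limma adjusted p = 0.0195), and the sign turned with quantile normalization, to 0.63, where it passed as higher (adjusted p = 0.0428). It did not pass with the GC trend removed, at -0.73 (limma adjusted p = 0.0705), or with no filter on low values (adjusted p = 0.0616). Summed over the 10 genes, the messenger RNAs made up 568 and 582 TPM in IgG and 979 and 937 TPM in SAFB. There were 62.0 and 47.8 TPM of 7SK for each TPM of these messenger RNAs in the IgG libraries, and 10.1 and 11.9 in the SAFB libraries. This ratio lies within a library, so it does not change when a library is rescaled by a constant factor. Quantile normalization is not such a rescaling, and the ratio was not computed under it.

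CDK12 and CDK13 share cyclin K, but the RNAs of the kinases and of the cyclin moved apart. Cdk12 (chromosome 11, 98203059 to 98278504) had 73.0 and 72.2 TPM in the IgG libraries and 249 and 226 TPM in the SAFB libraries. It rose by 1.69 ± 0.10 on the log2 scale (limma adjusted p = 0.00407), passed under all 11 alternatives that kept the 4 libraries, at 1.23 to 1.70, and was lost only without SAFB RIP replicate 1 (adjusted p = 0.0568). The microRNA gene Mir5119 lies within the Cdk12 model on the same strand and had 0 and 1.79 TPM in IgG and 64.6 and 37.9 TPM in SAFB, so reads of the 2 genes may not be separable there. Cdk13 (chromosome 13, 17710315 to 17805097) had 21.6 and 27.6 TPM in IgG and 128 and 119 TPM in SAFB. It rose by 2.29 ± 0.17 (limma adjusted p = 0.00468), at 1.83 to 2.34 under the same 11 alternatives, all of which it passed, and was lost without SAFB RIP replicate 1 (adjusted p = 0.133) and replicate 2 (adjusted p = 0.120). Gm48624 and 8430406P12Rik overlap the Cdk13 model on the same strand, by 2810 and 1070 bases, so reads may not be separable there. Gm48624 had 9.29 and 10.7 TPM in IgG and 12.1 and 7.74 TPM in SAFB. For 8430406P12Rik the values were 0.557 and 1.07 TPM in IgG and 3.51 and 3.36 TPM in SAFB. Cdk12 stood at percentile 86.3 and Cdk13 at percentile 93.6 of all genes tested.

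Ccnk, the cyclin K gene (chromosome 12, 108179579 to 108203359), had 25.5 and 28.9 TPM in IgG and 18.9 and 18.7 TPM in SAFB. Both SAFB libraries lay below both IgG libraries. The log2 fold change of -0.51 ± 0.19 did not pass as deposited (limma adjusted p = 0.105) and passed as lower after median centring, at -0.97 (adjusted p = 0.0225). Without IgG RIP replicate 1 it was -0.60. With the GC trend removed it was -0.12 (adjusted p = 0.681).

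Supt5, the gene of the large DSIF subunit (chromosome 7, 28314891 to 28338746), was the most abundant of the 10 in IgG, at 148 and 128 TPM, and had 133 and 127 TPM in SAFB. These overlap, and the log2 fold change of -0.08 ± 0.12 did not pass (limma adjusted p = 0.619). It passed as lower after median centring, at -0.54 (adjusted p = 0.0405), and as higher with the GC trend removed, at 0.63 (adjusted p = 0.0131), so these data give Supt5 no direction.

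**Figure D2:**
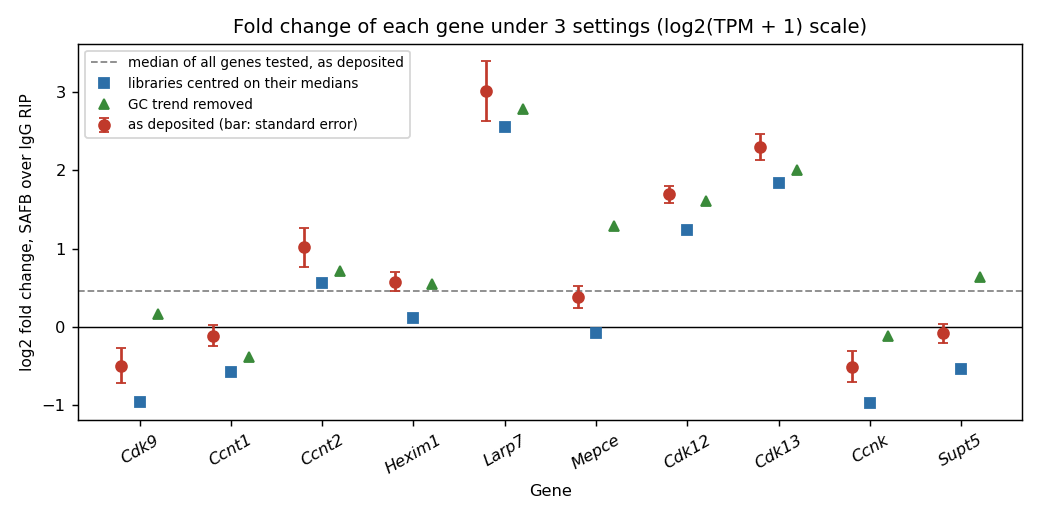
Log2 fold change of each gene, SAFB over IgG RIP, as deposited (red, with its standard error), with each library centred on its median (blue) and with the GC trend removed (green); the dashed line is the median of all genes tested, 0.46. Larp7, Cdk13, Cdk12, Ccnt2 and Hexim1 stay above 0 under all 3, while Cdk9, Mepce and Supt5 change sign between them.

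The order of the levels, which TPM allows because it is per length, differed between the groups. In the IgG RIP, Supt5 was highest, followed by Ccnt2, Cdk12, Cdk9, Ccnt1, Hexim1, Mepce, Ccnk, Cdk13 and Larp7. Neighbours from Ccnt2 to Ccnt1 overlapped in their library values, as did Ccnk and Cdk13. In the SAFB RIP, Cdk12 was highest, followed by Ccnt2, Supt5, Cdk13, Hexim1, Mepce, Ccnt1, Cdk9, Larp7 and Ccnk. There, Supt5 and Cdk13 overlapped, as did Mepce, Ccnt1 and Cdk9 in turn. Cdk13 thus moved from place 9 to place 4.

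Ratios of partner genes within each library were compared because they do not change when a library is rescaled. The pairs were chosen with the values known, and 2 libraries against 2 cannot give an exact two-sided permutation p below 0.333, so they carry no test. For each TPM of Ccnk there were 2.87 and 2.50 TPM of Cdk12 in the IgG libraries and 13.2 and 12.0 in the SAFB libraries. Cdk13 stood at 0.849 and 0.955 of Ccnk in IgG and at 6.80 and 6.37 in SAFB. The RNA of each kinase thus stood higher relative to the cyclin RNA in the SAFB precipitate, and the groups lay far apart relative to the gap within either.

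The cyclins T showed the same kind of split on a smaller scale. Ccnt2 stood at 1.28 and 1.89 times Ccnt1 in IgG and at 3.66 and 3.20 times in SAFB. The ratio of Ccnt1 to Cdk9 was 0.680 and 1.03 in IgG and 1.19 and 1.01 in SAFB, where the groups overlap. Within the 7SK particle, Larp7 stood at 0.0600 and 0.139 of Mepce in IgG and at 0.759 and 0.648 in SAFB, while Hexim1 stood at 1.19 and 1.26 times Mepce in IgG and at 1.41 in both SAFB libraries. Larp7 therefore parted from both of its partners. Hexim1 over Mepce moved little, though its groups did not overlap. A ratio does not remove the GC trend. With that trend removed, the log2 fold changes were 2.78 for Larp7, 0.54 for Hexim1 and 1.29 for Mepce.

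**Figure D3:**
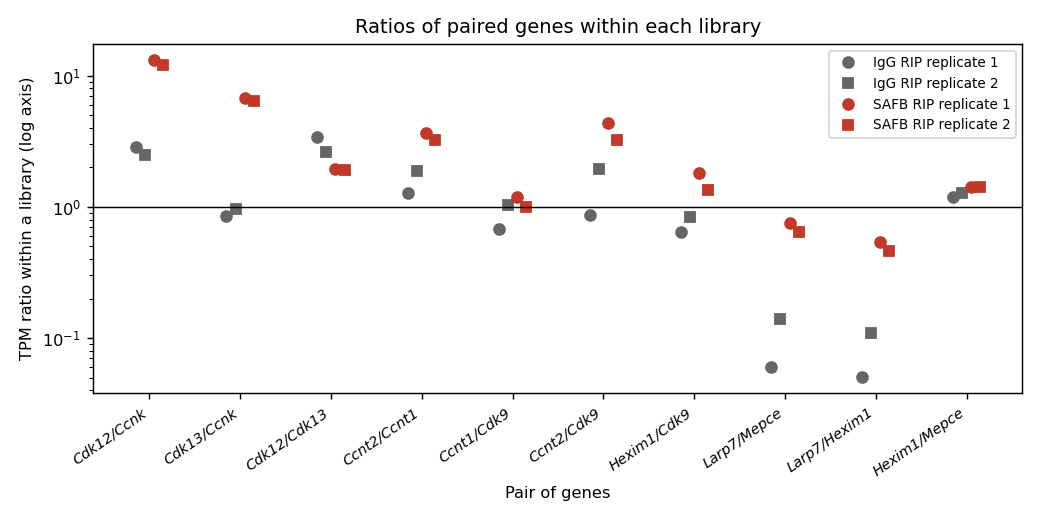
TPM ratios of 10 pairs of partner genes within each library (log axis), IgG RIP in grey and SAFB RIP in red, with circles for replicate 1 and squares for replicate 2. Larp7 over Mepce, Cdk13 over Ccnk and Cdk12 over Ccnk lie far apart between the groups, and Ccnt1 over Cdk9 overlaps.

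The transcripts differ in base composition, and fold changes moved with it. The 5 genes that rose had longest coding transcripts of 43.0% (Ccnt2), 43.4% (Cdk13), 46.3% (Larp7), 48.7% (Cdk12) and 49.2% (Hexim1) GC, below the median of 50.2% of 11961 tested protein-coding genes. Of those that did not pass, Ccnk (53.4%), Cdk9 (55.7%), Supt5 (56.3%) and Mepce (59.7%) lay above that median, and Ccnt1 (44.8%) lay below it. Across the 11961 genes, which share the same 4 libraries, log2 fold change and GC content had a Spearman rho of -0.51, and in the 25% of genes with the lowest GC content 47.5% were called higher, against 7.56% in the 25% with the highest. The rho over the 10 genes was -0.53. The part of base composition in the 5 calls was not tested beyond the removal of this trend. With the trend removed, Larp7 stood at 2.78, Cdk12 at 1.60 and Hexim1 at 0.54, all past the threshold together with Cdk13. Ccnt2 then stood at 0.71 and did not pass (limma adjusted p = 0.0541), and 6 of the 10 were called higher and 0 lower, against 33.0% and 3.69% of all genes.

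The purine word GAAGA, counted on the sense strand with overlaps, occurred 8.96 times per kb in the Larp7 transcript, at percentile 99.4 of the tested protein-coding genes, and 6.66 times per kb in Supt5, at percentile 97.5. The remaining genes had 0.577 (Cdk9) to 3.15 (Hexim1) per kb, around a median of 2.37 for all. Of the coding sequence alone, Larp7 held 18 GAAGA words in 1710 bases and Supt5 24 in 3246, and both held 0 of the reverse complement TCTTC. The coding sequence of Hexim1 also held 0 TCTTC, and the whole transcript of Supt5 held 0.533 per kb. The 2 richest transcripts thus had the largest log2 fold change of the 10 and one of -0.08. Cdk13, with the second largest fold change, had 1.51 per kb over its transcript of 12548 bases, below the median. Its coding sequence alone held 12 words in 4353 bases, or 2.76 per kb. No median over all genes was computed for coding sequence alone, so Cdk13 is not placed as poor or rich there. Across the 11961 genes, GAAGA per kb had a Spearman rho of 0.36 with log2 fold change and TCTTC per kb one of -0.06, and 97.7% of these transcripts held GAAGA. In the 25% of genes richest in GAAGA 46.8% were called higher, against 12.8% in the poorest 25%. Over the 10 genes the rho was 0.31. Such a value was not particular to the word. Transcript length had a rho of 0.31 over the 10 genes and 0.20 over the 11961, and gene span 0.33 and 0.23. These are descriptions of the genes and their sequence, and a match is not a bound site.

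**Figure D4:**
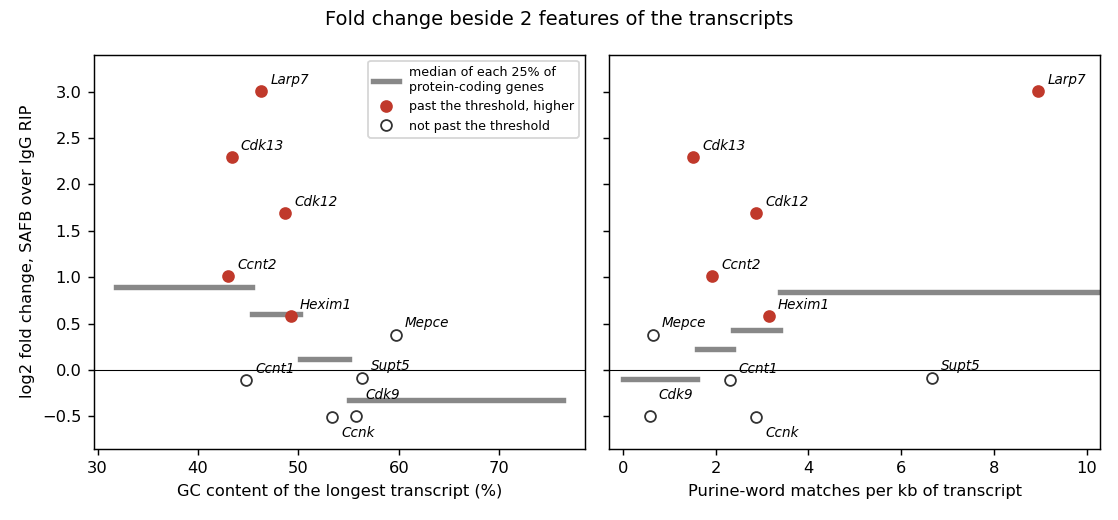
Log2 fold change (SAFB over IgG RIP) of the 10 genes against the GC content of the longest transcript (left) and GAAGA matches per kb (right), red where past the threshold and open where not; grey bars mark the median log2 fold change of each 25% of 11961 tested protein-coding genes, and the last bar on the right runs on beyond the axis. Supt5 lies well below the bar above it for the purine word, and Larp7 well above it.

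The other genes of the pathway were described through 7 lists. Of 69 listed genes 68 were tested (Aff3, listed at 0 in 3 libraries, was not): 27 rose, 9 fell and 32 did not pass, with a median of 0.42 against 0.46 for all genes. Of all genes tested 29.8% were called higher and 8.30% lower, and the counts of each list below stand on that background. After median centring 18 were higher and 16 lower, against 16.4% and 17.6% of all genes. No gene of these lists stayed past the threshold when either SAFB library was left out. Leaving out either IgG library raised the number of calls in the lists and over all genes tested alike.

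Among 13 genes of the list that holds 7SK itself and regulators of P-TEFb, 5 rose and 2 fell, and Rn7sk is 1 of those 2. Hnrnpr, whose product binds 7SK free of P-TEFb, stood at 16.3 and 31.3 TPM in IgG and 154 and 119 TPM in SAFB and rose by 2.53 ± 0.35 (limma adjusted p = 0.0105). Ddx21, a helicase gene whose product frees P-TEFb from 7SK, rose by 1.43 ± 0.23. Trim28, whose product brings the 7SK particle to promoters, fell by 1.34 ± 0.12 (by 0.43 with the GC trend removed, still past the threshold), and Hnrnpa2b1 stood at 0.56 ± 0.16 and did not pass. Of 9 tested genes of the super elongation complex, which carries P-TEFb to genes, 3 rose and 0 fell in limma (2 were lower on an unadjusted p under 0.05): Ell2 by 1.81 ± 0.42, Mllt3 by 1.51 ± 0.24 and Aff4, its scaffold gene, by 1.23 ± 0.09. Aff1, the other abundant scaffold gene, stood at 0.40 ± 0.17 and did not pass, and Ell2 no longer passed after median centring, at 1.35.

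NELF holds the polymerase in the paused state, and DSIF pairs SPT5 with SPT4. Of the 5 genes of NELF and Supt4a, 0 rose and 3 fell, with a median of -0.85. Nelfb stood at 83.0 ± 11.3 TPM in IgG and 43.7 ± 8.42 TPM in SAFB (SD, n = 2) and fell by 0.92 ± 0.20 (limma adjusted p = 0.0266). Nelfcd fell by 0.85 ± 0.17 and Supt4a by 0.86 ± 0.19, whereas Nelfa (-0.25) and Nelfe (0.30) did not pass. With the GC trend removed, Nelfb stood at -0.31 and Nelfcd at -0.25 and neither passed, while Supt4a did at -0.78 and Nelfe passed as higher, at 1.14 (limma adjusted p = 0.0423).

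The PAF complex and other elongation factors held the highest median of the 7 lists, 1.18, and 0.72 after median centring. Of these 12 genes 9 rose and 0 fell, as deposited and after median centring alike. Tcea1, which encodes the elongation factor TFIIS, had 14.5 and 14.3 TPM in IgG and 58.9 and 55.7 TPM in SAFB and rose by 1.92 ± 0.16 (limma adjusted p = 0.00533). Leo1 of the PAF complex rose by 1.46 ± 0.25, Ssrp1 of the histone chaperone FACT by 1.29 ± 0.15 and Supt6, the gene of the histone chaperone SPT6, by 0.97 ± 0.10.

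Of 13 genes of RNA polymerase II subunits, 3 rose and 3 fell, and after median centring 2 were higher and 6 lower. Polr2b, the second largest subunit gene, rose by 1.41 ± 0.19 and Polr2m by 1.36 ± 0.12, and the small subunit genes Polr2l and Polr2g both fell, each by 1.01. Polr2a, the largest subunit gene, had 178 and 179 TPM in IgG and 131 and 148 TPM in SAFB, and its log2 fold change of -0.36 did not pass (limma adjusted p = 0.0581). Polr2a passed as lower after median centring, at -0.82, with quantile normalization, at -0.67, and with protein-coding genes alone, at -0.66. Among 9 other transcription kinase and cyclin genes, 4 rose and 0 fell, with Mnat1 of the CDK7 complex at 1.62 ± 0.16, Cdk19 at 1.07 ± 0.21 and Ccnl2 at 0.57 ± 0.09 among those that rose, and 1 was higher after median centring. Cdk8 stood at 0.22 ± 0.10 and did not pass. Of 7 genes linked to phosphatases of the polymerase tail, 3 rose and 1 fell: Rpap2 rose by 2.61 ± 0.47 and Ctdspl by 0.73 ± 0.12, Ctdsp1 fell by 1.07 ± 0.23, and Ppp1r10 stood at 0.37 ± 0.17. Cdk19 (0.61), Ccnl2 (0.11) and Ctdspl (0.27) did not pass after median centring, nor did Ctdsp1 with the GC trend removed (-0.25). The counts of 0 for NELF with Supt4a, for the PAF list and for the kinase list were also 0 on an unadjusted p under 0.05.

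**Figure D5:**
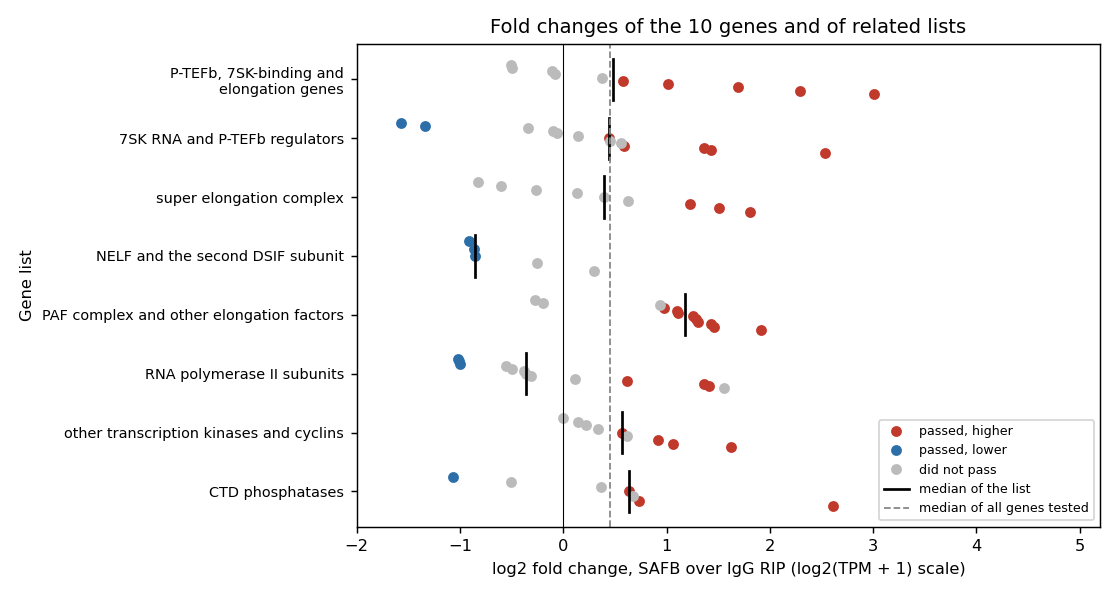
Log2 fold change (SAFB over IgG RIP) of the 10 genes and of the tested genes of 7 related lists, 1 point per gene, red for genes past the threshold and higher, blue for lower and grey for the rest, with the median of each list as a short black line and the median of all genes tested, 0.46, dashed. The genes of the PAF complex and other elongation factors centre on 1.18 and those of NELF with Supt4a on -0.85.

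The libraries held the markers of the labelled cell type. Of 12 hepatocyte markers 11 were tested and Apoa2 was at 0 throughout. Their summed level was 7473 to 7633 TPM in IgG and 6716 to 6980 TPM in SAFB, most of it from Trf, Ttr, Krt8 and Krt18. Trf (2547 and 2894 TPM in IgG, 1707 and 1916 TPM in SAFB) and Ttr were lower in SAFB. Apob (229 and 277 TPM in IgG, 501 and 528 TPM in SAFB), Alb and Fgb were higher, with Fgb at only 3.55 to 7.59 TPM. The other tested hepatocyte markers overlapped between the groups. Of 6 leukocyte markers only Cd68 was tested, at 6.31 to 12.7 TPM in IgG and 21.3 to 31.5 TPM in SAFB, and Adgre1 and Lyz2 were at 0 in every library. Whether the higher Cd68 value bears on the results was not tested. None of 7 endothelial and stellate markers was tested, with summed levels of 0.0816 to 2.17 TPM in IgG and 1.21 to 2.40 TPM in SAFB. In log2(TPM + 1), the 2 IgG libraries correlated at 0.923 across genes and the 2 SAFB libraries at 0.979.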

How the data were processed

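The authors deposited 1 table of TPM values per gene for 2 IgG and 2 SAFB RIP libraries of AML12 nuclei. Per the submitters' processing notes, mm10, HISAT2, StringTie, HTSeq and DESeq2 were used, with no role or version stated; the annotation and any use of strand are not given in the sources at hand. TPM keeps no read depth, so depth is unknown and counting error cannot be stated. Entries sharing an Ensembl identifier (14 of 52197) were summed; 52042 of 52189 identifiers were found in GENCODE release M21, the source of coordinates and transcripts (1 longest protein-coding transcript per gene). Genes reaching 1 TPM in 2 or more libraries were fitted by limma 3.58.1 in R 4.3.3 on log2(TPM + 1), with a variance trend, 2 residual and 2.5 prior degrees of freedom and Benjamini-Hochberg adjustment over all 16647 genes. The pseudocount understates fold changes of low genes. The script was run on simulated data with spreads drawn from its own fit, which checks the code and not the calls reported here. Alternatives covered pseudocount, filter, scaling, variance model, a replicate block, each library left out and, added after seeing the data, GC content. The members and lists were chosen with earlier results of these data known. Named are all 10 genes, Rn7sk, and from each list all genes (up to 5 tested) or the 2 called with the largest change per direction and the 2 of highest mean TPM.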

Additional observations from a re-analysis of the deposited data

How the results depend on the processing

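Larp7, Cdk12 and Cdk13 were called higher under all 11 alternatives that kept the 4 libraries. Counts of calls moved with the scaling: over all genes, median centring gave 2736 higher and 2935 lower, quantile normalization 2758 and 2986, and protein-coding genes alone 2600 and 2322, against 4964 and 1382 as deposited, and removing the GC trend left 613 lower. Of the 10 genes, 3 were higher under each of these 3 scalings and with no variance trend, and 4, 2 and 2 were lower under median centring, quantile normalization and protein-coding genes alone. Of the pathway genes, 16, 15 and 15 were lower under these, and 4 with the GC trend removed. Leaving out 1 library gave 767 to 7627 genes higher and 7 to 2566 lower, 0 to 6 of the 10 higher and 0 to 1 lower, and 0 to 34 pathway genes higher and 0 to 14 lower. Those fits kept the genes that pass the filter in the 4 libraries. Signs turned for Cdk9 (0.16 with the GC trend removed), Supt5 (0.63 with it removed, -0.18 to 0.022 with 1 library left out), Mepce (-0.080 centred), Rn7sk (0.63 by quantile), Aff1 (-0.063 centred), Nelfa (0.12 with the GC trend removed), Nelfe (-0.16 centred, -0.10 by quantile), Cdk8 (-0.24 centred, -0.10 by quantile, -0.078 with protein-coding genes alone) and Ppp1r10 (-0.091 centred). The cause was not tested. Same-numbered libraries are not stated to share a lysate, and their deviations from the group means correlated at -0.02 across genes; with the replicate block 4797 genes were higher and 1264 lower, and 5 of the 10 were higher and 0 lower. Depth is unknown, so what it limits cannot be given. Genes above 0 TPM numbered 16031 and 17278 in the IgG libraries and 22389 and 21006 in the SAFB libraries. Whether depth or the range of RNAs recovered lies behind this gap was not tested, nor was its bearing on the calls and on low IgG values.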
